A study of Mus musculus with 6 samples.

Results

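The interferon response and RNA sensing genes described here are 41 mouse genes, chosen by symbol from interferon-stimulated genes, their regulators and the cytosolic sensors of nucleic acid. All 41 were found among the 56884 genes counted, and they fall into 25 effectors, 8 sensors and adaptors, 5 transcription factors and 3 receptor chains. Counts per gene were analysed in 6 RNA sequencing libraries of Lgr5-GFP+ cells, sorted from organoids of the small intestine, cultures of gut epithelium that grow from crypts. All organoids came from mice of 1 genotype, with Ythdf2fl/fl, Villin-CreERT2 and Lgr5-EGFP-IRES-CreERT2. They therefore all carried a floxed *Ythdf2* gene and CreERT2, a Cre recombinase that is activated by 4-hydroxytamoxifen (4-OHT), under the villin promoter of the gut epithelium and in the *Lgr5* locus of intestinal stem cells. The groups were EtOH, the vehicle, at day 6 (2 libraries), 0.5 µM 4-OHT at day 6 (2 libraries), EtOH at day 4 (1 library) and 0.5 µM 4-OHT at day 4 (1 library). The age of the mice, the number of mice behind a culture and whether the replicates were separate cultures are not given in the sources used here, so the p-values measure the spread between these libraries, which may be technical.

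Cells detect viral or misplaced nucleic acid with sensors. RIG-I (*Rigi*) and MDA5 (*Ifih1*) bind double-stranded RNA in the cytosol and signal through the mitochondrial adaptor MAVS, cGAS (*Cgas*) binds DNA and signals through STING (*Sting1*), and TLR3 reads double-stranded RNA in endosomes. These pathways activate the transcription factors IRF3 and IRF7, which switch on interferon genes. Secreted type I interferon binds IFNAR1 and IFNAR2, type III interferon binds IFNLR1, and the receptors drive a complex that contains STAT2 and IRF9. The complex binds the interferon-stimulated response element upstream of effector genes, whose products block viral RNA, its translation or its release. Intestinal epithelial cells are known for their response to type III interferon.

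The element that this complex and the IRF proteins bind has the core GAAA, any 2 bases, GAAA, and it was searched on both strands of RefSeq promoter windows that run from 250 bases before to 50 bases after a gene's start. The window table (RefSeq, GRCm38.p6) held 30 of the 41 genes. Of these, 13 (43.33%) had a match, beside 3.99% of the 27025 genes of the table and 3.44% of its 32851 promoters. Matches were found in 11 of 18 effectors (61.11%), 1 of 4 sensors and adaptors (*Ifih1*), 1 of 5 transcription factors (*Stat2*) and 0 of 3 receptors. In the part before the start alone, 11 of the 30 (36.67%) had a match, beside 3.46% of genes. *Oas2*, *Mx1*, *Mx2*, *Usp18*, *Rtp4*, *Ifi27l2a*, *Parp14*, *Rigi*, *Dhx58*, *Zbp1* and *Sting1* had no entry under their symbols. A match is a description of the letters and not a measured binding site.

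The 250 bases before the start are printed 5′ to 3′ on the gene's own strand for 7 genes, with matches to the core or its reverse complement in capitals. The set shows 5 effectors with a match beside *Irf7*, a transcription factor that was higher in the libraries labelled 4-OHT, and *Irf3*, a transcription factor whose groups overlapped, neither of which had a match in this window. Positions are in GRCm39, found by exact match: *Isg15* chr4:156285276-156285525 (minus strand), *Ifit1* chr19:34618039-34618288 (plus), *Ifit3* chr19:34560679-34560928 (plus), *Rsad2* chr12:26506452-26506701 (minus), *Ddx60* chr8:62380871-62381120 (plus), *Irf7* chr7:140846338-140846587 (minus) and *Irf3* chr7:44646822-44647071 (plus).
Isg15: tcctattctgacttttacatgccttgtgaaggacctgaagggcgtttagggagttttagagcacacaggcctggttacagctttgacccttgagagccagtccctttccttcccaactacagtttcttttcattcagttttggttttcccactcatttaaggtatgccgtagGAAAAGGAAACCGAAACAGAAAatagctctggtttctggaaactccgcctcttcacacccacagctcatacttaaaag
Ifit1: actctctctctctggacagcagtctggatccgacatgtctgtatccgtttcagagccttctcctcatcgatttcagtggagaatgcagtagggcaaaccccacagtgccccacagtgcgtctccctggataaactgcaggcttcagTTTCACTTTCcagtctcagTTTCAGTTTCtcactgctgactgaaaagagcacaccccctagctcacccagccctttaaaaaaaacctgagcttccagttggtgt
Ifit3: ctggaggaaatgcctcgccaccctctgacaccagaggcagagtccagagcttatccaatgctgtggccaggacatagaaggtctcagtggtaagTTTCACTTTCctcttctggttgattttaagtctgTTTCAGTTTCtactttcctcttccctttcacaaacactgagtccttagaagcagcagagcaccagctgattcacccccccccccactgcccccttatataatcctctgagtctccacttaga
Rsad2: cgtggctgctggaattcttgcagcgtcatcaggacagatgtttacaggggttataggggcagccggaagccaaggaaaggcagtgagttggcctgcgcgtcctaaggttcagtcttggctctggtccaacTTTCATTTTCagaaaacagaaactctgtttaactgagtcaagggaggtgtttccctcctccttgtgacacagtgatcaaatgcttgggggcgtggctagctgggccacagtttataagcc
Ddx60: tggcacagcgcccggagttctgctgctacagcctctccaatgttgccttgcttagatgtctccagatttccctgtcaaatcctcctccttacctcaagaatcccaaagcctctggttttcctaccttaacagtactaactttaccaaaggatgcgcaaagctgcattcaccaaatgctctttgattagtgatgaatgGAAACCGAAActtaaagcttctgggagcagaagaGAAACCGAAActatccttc
Irf7: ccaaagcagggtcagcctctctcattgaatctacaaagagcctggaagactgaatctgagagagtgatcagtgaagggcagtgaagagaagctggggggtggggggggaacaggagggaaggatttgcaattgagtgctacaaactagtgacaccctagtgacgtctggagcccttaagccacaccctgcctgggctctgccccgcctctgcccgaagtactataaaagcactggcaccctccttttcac
Irf3: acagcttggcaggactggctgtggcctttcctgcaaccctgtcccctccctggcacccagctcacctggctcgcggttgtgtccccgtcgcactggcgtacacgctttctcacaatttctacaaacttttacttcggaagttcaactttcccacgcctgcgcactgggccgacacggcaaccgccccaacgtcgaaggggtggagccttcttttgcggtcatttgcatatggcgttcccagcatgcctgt

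*Isg15* had 3 overlapping matches, GAAAAGGAAA, GAAACCGAAA and GAAACAGAAA. *Ddx60* had the same match, GAAACCGAAA, at 2 places, with first bases 53 and 19 bases before the start. *Ifit1*, *Ifit3* and *Ifit3b* each held TTTCACTTTC followed by TTTCAGTTTC, equally spaced in *Ifit3* and *Ifit3b*. Other effectors with a match were *Oas3* (GAAAACGAAA), *Oas1a*, *Bst2*, *Cxcl10* and *Eif2ak2*. Of the 11 genes that passed a test below, 9 were in the table and 6 of those (66.67%) had the core, the exceptions being *Oasl1*, *Oasl2* and *Irf7*. A separate core, that of the gamma-activated sequence (TTC, any 3 bases, GAA), was found in 9 of the 30 genes (30.0%) beside 9.55% of genes of the table, among them *Irf1*, *Ifnar1* and *Ifnar2*.

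The libraries held 14345379 to 21461835 gene counts, of which 10728 to 17529 fell on the 41 genes. *Ythdf2* checks the labels, and it went against them: it had 1563 and 1312 counts with EtOH and 4463 and 3816 in the libraries labelled 4-OHT at day 6, and 1483 against 2466 at day 4. A count per gene does not tell whether the floxed exons are among the reads, so directions below compare libraries labelled 4-OHT with EtOH libraries by label alone. *Lgr5*, the sorted reporter gene, was detected in all 6 libraries at 209 to 368 CPM (counts relative to library size, TMM-scaled over the 6 libraries). The 6 stem cell markers summed to 4370 and 3340 CPM (EtOH) against 2160 and 1780 CPM (labelled 4-OHT) at day 6. Of these, *Olfm4* was called lower and 3 others had an unadjusted p under 0.05, also lower. The remaining 2 had positive log2 fold changes of at most 0.41 and were not called. The 8 enterocyte markers summed to 1170 and 1230 CPM (EtOH) against 3660 and 2870 CPM (labelled 4-OHT) at day 6, with 7 of 8 called higher, and to 841 against 1070 CPM at day 4. The 6 Paneth cell markers summed to 2800 and 2010 CPM against 4900 and 2010 CPM at day 6, and to 395 against 1650 CPM at day 4. Tuft cell markers summed to 30.9 and 18.6 against 9.54 and 8.25 CPM at day 6 (1 of 4 tested called lower), goblet cell markers to 3050 and 3270 against 2660 and 2440 CPM (2 of 6 called higher), and enteroendocrine markers to 425 and 345 against 664 and 345 CPM (0 of 6 called). At day 4 the enteroendocrine sum was 55.7 against 253 CPM, the goblet sum 1950 against 2250 CPM and the tuft sum 9.84 against 6.99 CPM. The part of these other cell types in the differences below was not tested, and in bulk libraries fewer cells of a type and less RNA per cell cannot be told apart. Markers of immune cells summed to 0.29 to 1.59 CPM in any library, with 0 to 2 counts of *Ptprc* and 0 of *Itgax*. Markers of mesenchymal cells summed to 0.371 to 1.09 CPM, with *Lum* at 0 in all libraries, and those of endothelial cells to 0.232 to 1.18 CPM.

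At day 6 a part of the effectors and *Irf7* were higher in the libraries labelled 4-OHT, while no tested gene of the 41 was called lower. Of the 41 genes, 38 passed the filter on low counts and 7 of them had an adjusted p under 0.05 (edgeR quasi-likelihood test, Benjamini-Hochberg over all 14066 genes tested). These were the effectors *Ifit1*, *Ifit3*, *Oasl1*, *Oasl2*, *Rsad2* and *Ddx60* and the transcription factor *Irf7*. Over all genes tested, 2.27% were called higher and 0.235% lower (2.51% in either direction). DESeq2 called 8 of the 41 higher, adding *Oas1a*, and 0 lower, beside 2.02% of all its genes in either direction. At an unadjusted p under 0.05, 21 of the 38 stood out, all higher, beside 10.3% of all genes in either direction. Both libraries labelled 4-OHT were above both EtOH libraries for 25 of the 38, beside 20.4% of all genes, and below them for 0, beside 18.4%. Without EtOH replicate 1 of day 6 only *Oasl1* and *Irf7* were still called (2 genes), while the calls over all genes fell from 353 to 99 (0.666%). The other 5 kept log2 fold changes of 1.92 (*Ddx60*) to 3.55 (*Rsad2*) in that comparison.

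The median log2 fold change at day 6 was 2.01 for the 23 tested effectors, 0.27 for the 7 sensors and adaptors, 0.06 for the 5 transcription factors and 0.16 for the 3 receptors, beside −0.01 for all genes tested. Without EtOH replicate 1 the effector median was 1.38, and without EtOH replicate 2 it was 2.39. Effectors were called in 6 of 23 cases, beside 2.27% of all genes called higher. They showed a positive value in 22 of 23, the exception being *Cxcl10*, beside 6778 of all 14066 genes tested. Sensors and adaptors were called in 0 of 7 cases, transcription factors in 1 of 5 and receptors in 0 of 3. Many effectors were low, and 11 of the 38 genes lay under 1 CPM with EtOH at day 6. Such a gene passes the filter mainly through the group in which it is higher. The effector median and the count of positive values are therefore descriptions and not tests. *Oas2*, *Ifi27l2a* and *Zbp1* did not pass the filter.

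**Figure D1:**
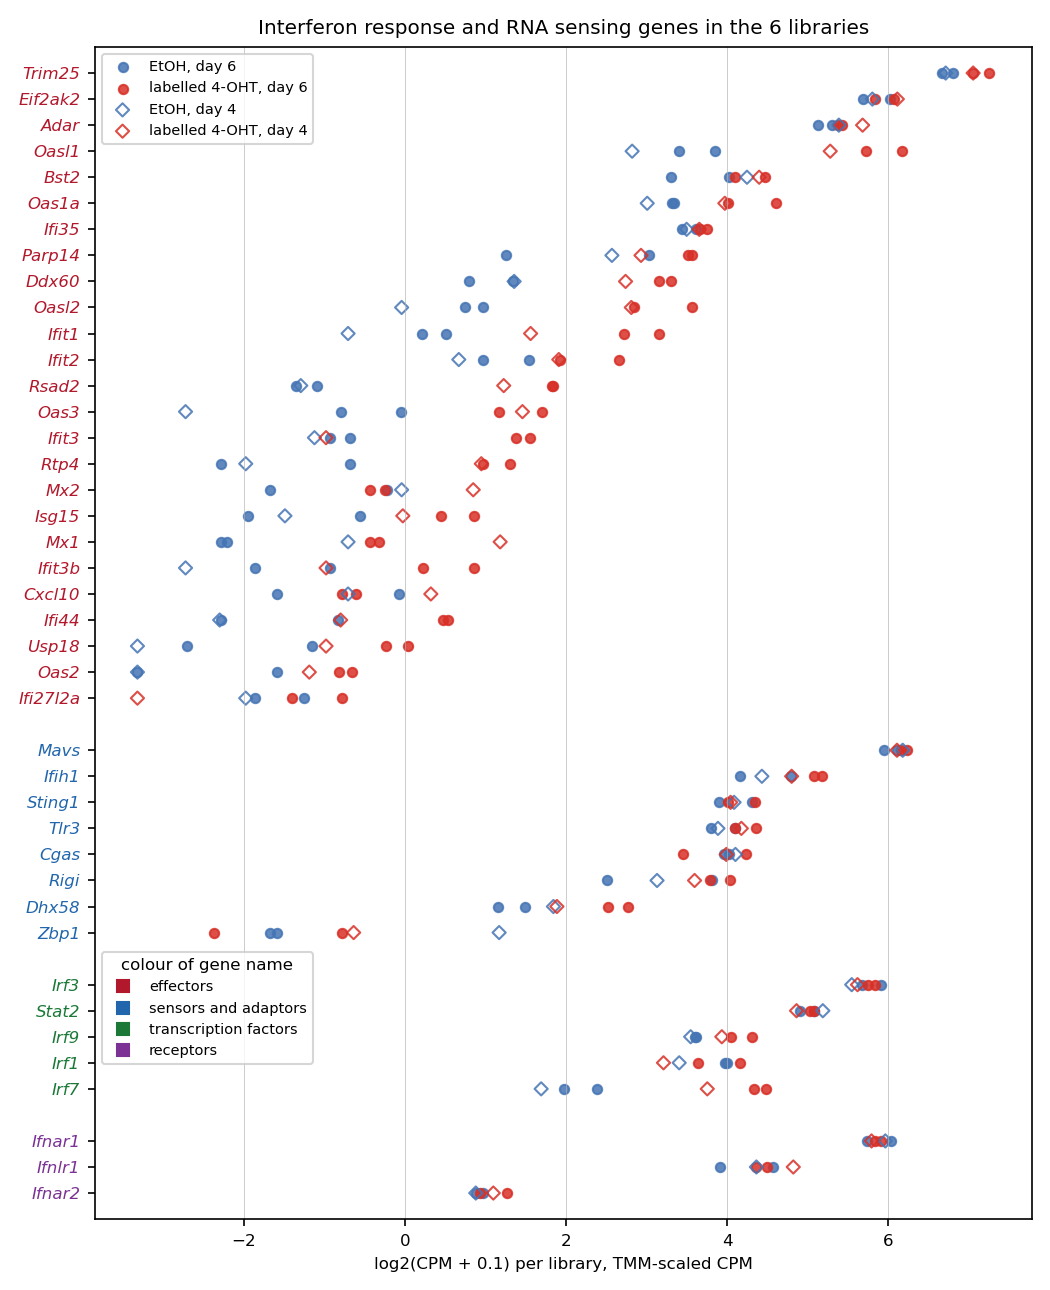
Level of each of the 41 genes in the 6 libraries, as log2(CPM + 0.1) on the horizontal axis, with 1 row per gene ordered by role and mean level. Filled circles are the day 6 libraries and open diamonds the day 4 libraries, blue for EtOH and red for those labelled 4-OHT; the rows of *Oasl1*, *Ifit1*, *Rsad2* and *Irf7* show all red symbols to the right of all blue ones, while *Mavs*, *Irf3* and *Ifnar1* show them mixed.

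The IFIT genes encode proteins that bind viral RNA and block its translation, and they lie together on chromosome 19 (GRCm39, plus strand): *Ifit2* at 34527932 to 34554524, *Ifit3* at 34560899 to 34566443, *Ifit3b* at 34585328 to 34590801 and *Ifit1* at 34618271 to 34632174. *Ifit1* had 20 and 23 counts with EtOH and 139 and 164 in the libraries labelled 4-OHT at day 6, and 10 against 42 at day 4. It averaged 1.20 ± 0.194 CPM under EtOH and 7.62 ± 1.64 CPM under the 4-OHT label (SD, n = 2), giving a log2 fold change of 2.66 (SE 0.39, edgeR adjusted p = 0.00572). The 3 libraries labelled 4-OHT were all above the 3 EtOH libraries. *Ifit3* had 8 and 9 counts against 54 and 53 at day 6, with a log2 fold change of 2.48 (SE 0.51, edgeR adjusted p = 0.0349). At day 4 it had 7 counts with EtOH and 6 in the library labelled 4-OHT, so the separation of day 6 was not seen there. *Ifit3* and *Ifit3b* share identical stretches of 100 bases or more over 42.5% of the *Ifit3* transcript and 59.8% of the *Ifit3b* transcript. Reads that lie wholly in those stretches map to more than 1 place and are in no gene's count. Both genes are therefore undercounted by an unknown amount. *Ifit3b* itself had 8 and 3 counts against 37 and 20 (log2 fold change 2.19, SE 0.68, edgeR adjusted p = 0.186), and *Ifit2* had 53 and 32 against 134 and 69 (1.09, SE 0.40, edgeR adjusted p = 0.321). Neither of the last pair was called, although the day 6 groups did not overlap in either.

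The 2′-5′-oligoadenylate synthetases make a messenger that activates RNase L when they meet double-stranded RNA, and the OAS-like proteins are their relatives. *Oasl1* and *Oasl2* are neighbours on the plus strand of chromosome 5 (115061294 to 115075974 and 115034997 to 115050295, GRCm39). *Oasl1*, which is known to repress translation of *Irf7* mRNA, had 199 and 246 counts with EtOH and 1132 and 1349 in the libraries labelled 4-OHT at day 6, and 136 against 572 at day 4. These were 12.4 ± 2.63 and 62.5 ± 13.9 CPM at day 6 (SD, n = 2), giving a log2 fold change of 2.33 (SE 0.24, edgeR adjusted p = 9.2e-04). It took 2.02% of the summed CPM of the 41 genes with EtOH at day 6 and 7.52% in the libraries labelled 4-OHT. *Oasl2* had 35 and 27 counts against 152 and 219 at day 6, with a log2 fold change of 2.44 (SE 0.39, edgeR adjusted p = 0.00842), and 17 against 102 at day 4. In both genes each library labelled 4-OHT was above each EtOH library.

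*Oas1a*, *Oas2* and *Oas3* lie on the minus strand of chromosome 5 between 120868398 and 121046449. *Oas1a* had 187 and 173 counts against 345 and 453 at day 6 and 155 against 230 at day 4. Its day 6 log2 fold change was 1.01 (SE 0.27, edgeR adjusted p = 0.0999), and over both days it was 1.00 (SE 0.20, edgeR adjusted p = 0.0187). At day 6 alone it was also called by DESeq2, and by edgeR without 4-OHT replicate 1 (1.28). Of its transcript, 64.1% lies in identical stretches shared with *Oas1g*, which leaves its count uncertain. *Oas3* had 9 and 15 counts against 46 and 59 at day 6 (log2 fold change 1.97, SE 0.52, edgeR adjusted p = 0.104). At day 4 it had 1 count with EtOH and 39 in the library labelled 4-OHT, which makes a scaled ratio of 51.6 (exact 95% interval 8.74 to 2090, from counting error alone). Over both days its log2 fold change was 2.52 (SE 0.52, edgeR adjusted p = 0.0249). In 11 alternative analyses of both days the value ran from 1.97 (without a day 4 library) to 3.25 (without EtOH replicate 2 of day 6). *Oas3* was called in 7 of them. *Oas2* was too low to test, with 0 and 4 counts against 10 and 10 at day 6 and 0 against 5 at day 4.

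*Rsad2* encodes viperin, an enzyme that makes a chain-terminating nucleotide, and it had the largest log2 fold change of the 38 genes at day 6. Its counts were 7 and 5 with EtOH and 74 and 65 in the libraries labelled 4-OHT at day 6, and 6 against 33 at day 4. The level was 0.33 ± 0.0572 against 3.46 ± 0.0274 CPM (SD, n = 2), giving a log2 fold change of 3.35 (SE 0.52, edgeR adjusted p = 0.00813). All 3 EtOH libraries held fewer than all 3 labelled 4-OHT, but with 5 to 7 counts in the EtOH libraries the size of the difference is imprecise, with a 95% interval of 2.19 to 4.52. *Ddx60*, a helicase that assists RNA sensing, had 31 and 42 counts against 189 and 182 at day 6 and 48 against 97 at day 4. Its log2 fold change was 2.18 (SE 0.34, edgeR adjusted p = 0.00806), and here too no EtOH library reached the level of a library labelled 4-OHT.

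*Mx1*, a dynamin-like GTPase that traps viral nucleoproteins, had 2 and 2 counts against 15 and 12 at day 6 and 10 against 32 at day 4. It was not called at day 6 (log2 fold change 2.53, SE 0.88, edgeR adjusted p = 0.254) and was called over both days (2.24, SE 0.49, edgeR adjusted p = 0.0259). Its relative *Mx2*, with which it shares identical stretches over 5.2% of its transcript, had 4 and 13 counts against 16 and 12, and the groups overlapped. *Rtp4*, an interferon-induced chaperone of receptor proteins, had 2 and 9 counts against 40 and 44 at day 6 and 3 against 27 at day 4. Its log2 fold change was 2.75 at day 6 (SE 0.66, edgeR adjusted p = 0.0661) and 2.95 over both days (SE 0.52, edgeR adjusted p = 0.0106), and 26.6% of its exon bases overlap *Gm45338* on the same strand. Leaving out EtOH replicate 1 of day 6 gave a day 6 value of 1.99 (2.51 over both days, no longer called), and leaving out replicate 2 gave 4.22 (3.85 over both days).

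ISG15 is a ubiquitin-like protein that is joined to other proteins, and USP18 removes it and also restrains interferon receptor signalling. *Isg15* had 3 and 10 counts with EtOH and 27 and 32 in the libraries labelled 4-OHT at day 6, and 5 against 13 at day 4, with a day 6 log2 fold change of 2.01 (SE 0.67, edgeR adjusted p = 0.236). *Usp18* had 1 and 6 counts against 20 and 14 at day 6 and 0 against 6 at day 4 (log2 fold change 2.08, SE 0.84, edgeR adjusted p = 0.399). Neither was called, and both had groups that did not overlap over the 6 libraries. Of the exon bases of *Isg15*, 31.1% overlap *Gm46878* on the other strand, and the strand setting of the counting is not given in the sources used here. *Ifi44*, an interferon-induced cytoplasmic protein, had 2 and 8 counts against 29 and 24 (log2 fold change 2.22, edgeR adjusted p = 0.202). *Ifi27l2a*, which shares 18.7% of its transcript with *Ifi27*, had 0 to 9 counts in any library and was not tested.

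The other effectors were closer together. *Trim25*, the ubiquitin ligase that acts on the RIG-I pathway, had the highest level of the effectors, 18.6 CPM per kb of exon with EtOH and 24.9 in the libraries labelled 4-OHT at day 6. Its CPM were 102 and 112 with EtOH and 153 and 133 in the libraries labelled 4-OHT at day 6, and 105 against 133 at day 4. The groups did not overlap, but its log2 fold change of 0.42 (SE 0.16) had an edgeR adjusted p of 0.366. *Eif2ak2* encodes PKR, the kinase that stops translation on double-stranded RNA, and its log2 fold change was 0.10 with a 95% interval of −0.32 to 0.51. *Adar*, whose product edits adenosine to inosine in double-stranded RNA, had 0.19 (−0.21 to 0.59), with 16.8% of its exon bases overlapping *Chrnb2* on the other strand. *Bst2* (tetherin, which holds budding viruses at the membrane) had 0.59 (−0.04 to 1.22) and *Ifi35* 0.18 (−0.36 to 0.72). These 3 intervals, with that of *Eif2ak2*, exclude a rise of the size seen for *Oasl1* (2.33). *Parp14*, an ADP-ribosyltransferase, had 43 and 139 counts with EtOH and 242 and 218 in the libraries labelled 4-OHT (log2 fold change 1.16, SE 0.45, edgeR adjusted p = 0.367), with the EtOH libraries far apart. *Cxcl10*, a chemokine, had 16 and 4 counts against 12 and 9, so that the groups overlapped.

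**Figure D2:**
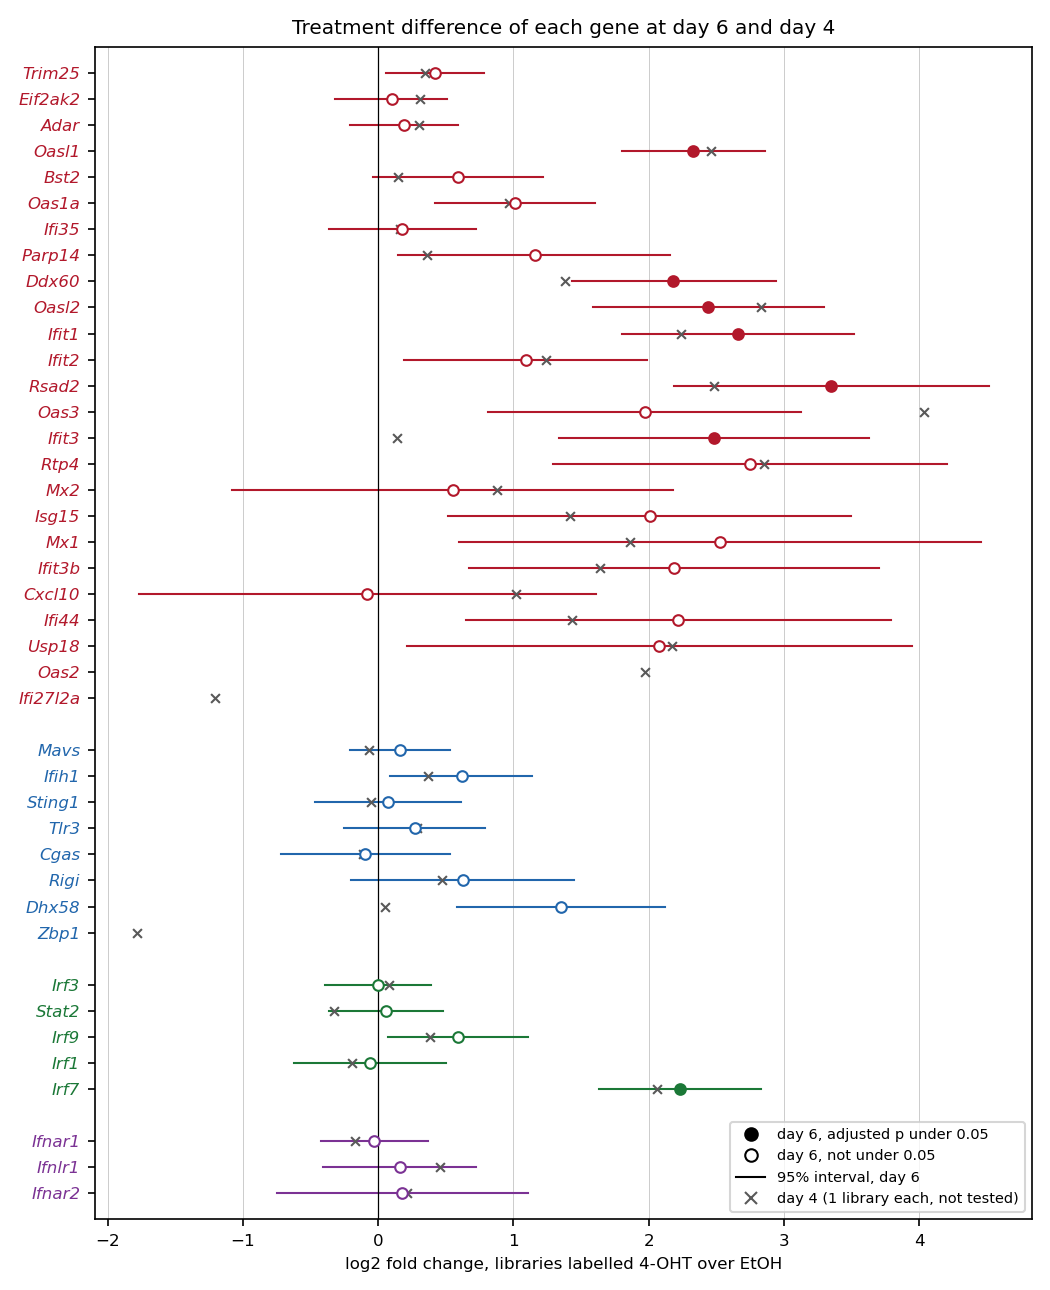
Log2 fold change of each gene, libraries labelled 4-OHT over EtOH, at day 6 (circles with 95% intervals, filled where the edgeR adjusted p was under 0.05) and at day 4 (crosses, 1 library each and not tested). The 7 filled circles lie between 2.18 and 3.35, and the sensors, receptors and transcription factors other than *Irf7* lie between −0.10 and 1.35; *Oas2*, *Ifi27l2a* and *Zbp1* have no circle because they were too low to test at day 6.

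None of the 7 tested sensors and adaptors was called at day 6, and 2 of them had an unadjusted p under 0.05. *Mavs*, the adaptor of RIG-I and MDA5, had the highest level of this role at 5.76 CPM per kb with EtOH at day 6. Its CPM were 61.9 and 69.1 with EtOH and 71.6 and 74.9 in the libraries labelled 4-OHT at day 6, and 72.5 against 69.0 at day 4, with a day 6 log2 fold change of 0.16 (SE 0.16, edgeR adjusted p = 0.858). The day 4 values thus ran the other way by a small amount. *Dhx58* encodes LGP2, a relative of RIG-I that lacks its signalling domain, and had the largest difference of the role. It had 40 and 47 counts against 121 and 126 at day 6 (log2 fold change 1.35, SE 0.34, edgeR adjusted p = 0.0881) but 68 against 53 at day 4, a ratio of 1.03 (exact 95% interval 0.707 to 1.5) after scaling. *Ifih1* had 17.8 and 27.6 CPM against 36.1 and 33.6 CPM at day 6 (0.62, SE 0.24, edgeR adjusted p = 0.346) and *Rigi* 5.61 and 13.9 against 16.3 and 13.7 (0.63, SE 0.37, edgeR adjusted p = 0.665). In *Rigi* the groups overlapped, and EtOH replicate 1 was the lowest library for both sensors. *Tlr3* (0.27, 95% interval −0.25 to 0.79), *Sting1* (0.07, −0.47 to 0.61) and *Cgas* (−0.10, −0.72 to 0.53) had intervals on both sides of 0 in log2 fold change. *Zbp1*, a sensor of Z-form nucleic acid, had 42 counts in the EtOH library of day 4 and 2 to 9 counts in the other 5. Its day 4 ratio was 0.252 (exact 95% interval 0.102 to 0.544), the only gene of the 41 above the day 4 minimum that was at least 2-fold lower.

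Among the transcription factors only *Irf7* was called at day 6, while 2 of the 5 had an unadjusted p under 0.05 (edgeR), both higher. *Irf7* (chromosome 7, 140842619 to 140846398, minus strand, GRCm39) had 97 and 66 counts with EtOH and 431 and 417 in the libraries labelled 4-OHT at day 6, and 61 against 197 at day 4. Its level was 4.48 ± 0.927 against 21.2 ± 1.61 CPM (SD, n = 2), giving a log2 fold change of 2.23 (SE 0.27, edgeR adjusted p = 0.00221). The 3 libraries labelled 4-OHT were all above the 3 EtOH libraries, and with *Oasl1* it was called in 11 of 11 alternative analyses of day 6. *Irf3*, the constitutive partner of *Irf7*, had the highest level of the role at 16.0 CPM per kb in both groups of day 6. Its CPM were 60.2 and 50.9 with EtOH and 57.2 and 53.9 in the libraries labelled 4-OHT, with overlapping groups and a 95% interval of −0.39 to 0.39 on the log2 scale. *Stat2* (0.06, 95% interval −0.36 to 0.48) and *Irf1* (−0.06, −0.62 to 0.50) also overlapped, and 44.6% of the exon bases of *Irf1* overlap other genes, chiefly *Gm17334* on the other strand. *Irf9*, the DNA-binding part of the STAT2 complex, had 12 and 12.1 CPM (EtOH) against 19.7 and 16.5 CPM (labelled 4-OHT) at day 6, and 11.6 against 15.2 at day 4. Its groups did not overlap over the 6 libraries, but it was not called (log2 fold change 0.59, SE 0.23, edgeR adjusted p = 0.372).

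No receptor chain was called at day 6. *Ifnar1*, with 7.32 CPM per kb the highest of the role, had 53.5 and 65.3 CPM (EtOH) against 59.9 and 57.0 CPM (labelled 4-OHT) at day 6, and 62.4 against 55.4 at day 4. Its log2 fold change at day 6 was −0.03 (SE 0.18, edgeR adjusted p = 0.985), and the groups overlapped. *Ifnlr1*, the type III interferon receptor chain, had 0.16 (95% interval −0.41 to 0.72). *Ifnar2* had 30 to 43 counts in each library and a log2 fold change of 0.18 (−0.75 to 1.11), with 22.7% of its transcript in identical stretches shared with *Gm21970*. The intervals of *Ifnar1* and *Ifnlr1* exclude a 2-fold difference in either direction, while that of *Ifnar2* does not.

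The ligands and the rest of the pathway were read from lists. The 12 interferon genes listed held 0 to 9 counts in sum per library, 6 of them were at 0 in all 6 libraries (*Ifnb1*, *Ifng* and *Ifnl3* among them), and none could be tested. A sum of 0, as in EtOH replicate 1 of day 6, allows up to 3 counts. Identical stretches shared among the interferon genes were not searched, and reads that map to several places are in no gene's count. Of 20 signalling components (kinases, other adaptors, other receptors and factors) 17 were tested, 0 were called by edgeR or by DESeq2 and 1 had an unadjusted p under 0.05, with a median log2 fold change of 0.02. Of 10 nucleic acid clearance genes 9 were tested, 0 were called by either tool and 0 had an unadjusted p under 0.05, with a median of −0.10. Of 49 other interferon-stimulated genes 35 were tested, 3 were called higher and 0 lower (DESeq2: 4 higher, 1 lower), with a median of 0.44. *Ifit1bl1* had 10 and 25 counts against 238 and 146 at day 6 (log2 fold change 3.27, SE 0.45, edgeR adjusted p = 0.00454) and 2 against 38 at day 4. *Ifit1bl2* had 24 and 20 counts against 118 and 104 (2.17, SE 0.38, edgeR adjusted p = 0.0148) and *Ifi27* 156 and 169 against 427 and 380 (1.15, SE 0.24, edgeR adjusted p = 0.0333). Both *Ifit1bl* genes lie on the minus strand at the IFIT genes, and *Ifit1bl2* (34594449 to 34639833, GRCm39) spans the whole of *Ifit1*. Of the *Ifit1bl2* transcript, 8.3% lies in identical stretches shared with *Ifit1*. All 3 genes had each library labelled 4-OHT above each EtOH library.

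**Figure D3:**
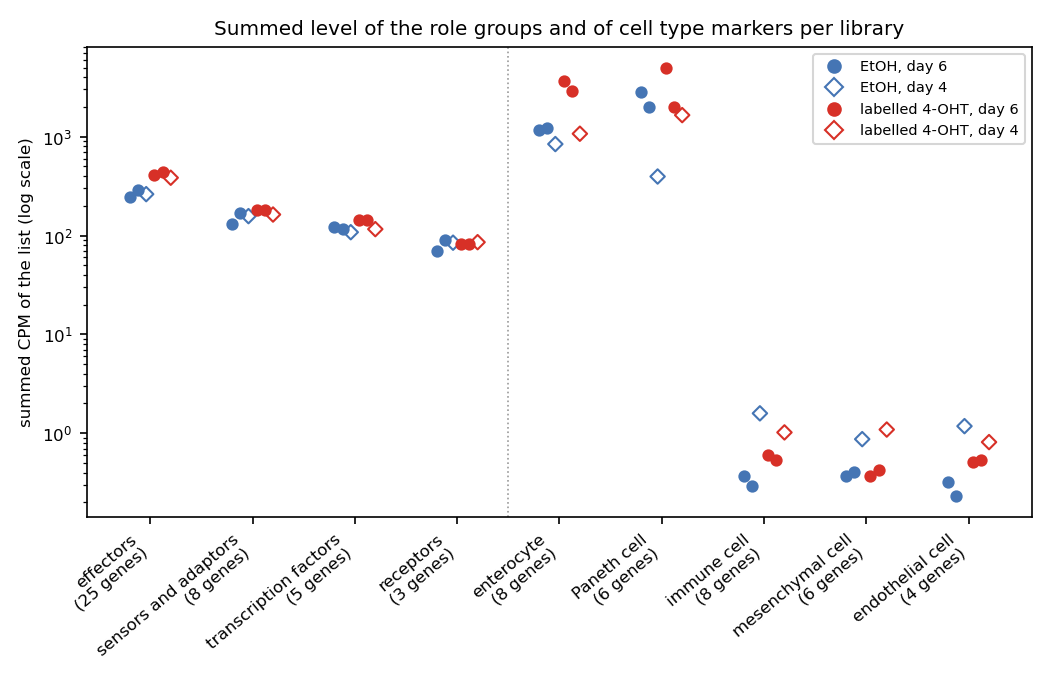
Summed CPM (log axis) of the 4 role groups and of 5 lists of cell type markers in each library, with filled circles for day 6 and open diamonds for day 4, blue for EtOH and red for the libraries labelled 4-OHT. The effector sum was 243 to 288 CPM in the EtOH libraries and 384 to 439 CPM in those labelled 4-OHT, and the immune, mesenchymal and endothelial markers summed to at most 1.59 CPM.

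Summed over each role, effectors had 243, 288 and 262 CPM in the EtOH libraries (day 6 replicates 1 and 2, then day 4) and 410, 439 and 384 CPM in the libraries labelled 4-OHT. Sensors and adaptors had 132, 167 and 157 against 182, 181 and 163 CPM, transcription factors 123, 116 and 108 against 142, 144 and 116 CPM, and receptors 70.3, 90.6 and 84.6 against 82.2, 81.8 and 85.6 CPM. The effector sums did not overlap between the labels, whereas those of the receptors did. The 11 genes called at day 6 or over both days held 5.48% of the summed CPM of the 41 genes with EtOH at day 6 and 17.1% in the libraries labelled 4-OHT. They were picked because they were called higher in these same libraries, so the larger share follows from the choice and is no separate result.

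Over both days, with day as a term, 11 of 35 tested genes were called higher and 0 lower, beside 3.67% higher and 0.718% lower (4.39% in either direction) of all 14060 genes tested. DESeq2 called 10 of the 41, beside 2.6% of all its genes. Of these 10, 9 were also called by edgeR, while *Ifit3* (DESeq2 adjusted p = 0.103) and *Mx1* (DESeq2 adjusted p = 0.0893) were called by edgeR alone. By edgeR, 18 of the 35 had an unadjusted p under 0.05, all higher, beside 16.1% of all genes in either direction. The 11 called by edgeR were the 7 genes of day 6 with *Oas1a*, *Oas3*, *Mx1* and *Rtp4*. Thus 10 of the 20 effectors tested passed by edgeR, beside 0 of 7 sensors and adaptors, 1 of 5 transcription factors and 0 of 3 receptors. The log2 fold changes of the 7 were 3.20 for *Rsad2*, 2.62 for *Ifit1*, 2.58 for *Oasl2*, 2.38 for *Oasl1*, 2.19 for *Irf7*, 2.08 for *Ifit3* and 1.93 for *Ddx60*. All 3 libraries labelled 4-OHT were above all 3 EtOH libraries in 17 of the 35, beside 11.1% of all genes, and below them in 0, beside 9.02%. The count was 6 without EtOH replicate 1 of day 6, beside 3.71% of all genes. It was 7 without 4-OHT replicate 2 of day 6 (2.7% of all genes) or without either day 4 library (2.5% of all genes each). When a day 4 library was left out, the day term took up the remaining one, so that fit rests on the day 6 libraries alone. *Oas1a*, *Oas3*, *Mx1* and *Rtp4*, which were not called at day 6, therefore lost the call there, and this is no separate check.

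The day 4 libraries, 1 for each label and without a test, gave 10 of 33 genes at least 2-fold higher in the library labelled 4-OHT, beside 4.68% of the 12864 genes that averaged 1 CPM or more, and 1 of 33 at least 2-fold lower, beside 1.39%. The 10 were *Irf7* and 9 effectors. *Oasl1* had a ratio of 5.57 (exact 95% interval 4.61 to 6.76), *Oasl2* 7.94 (4.73 to 14.2), *Ifit1* 5.56 (2.75 to 12.4), *Rsad2* 7.28 (3.01 to 21.3) and *Irf7* 4.28 (3.19 to 5.80). These intervals cover counting error only and say nothing on the spread between cultures. The median log2 ratio was 1.24 over the 17 effectors above the minimum and 0.00 over the 8 sensors and adaptors, beside 0.00 over all genes. *Ifit3* had a day 4 ratio of 1.13 (0.315 to 3.94) and *Dhx58* of 1.03, beside day 6 log2 fold changes of 2.48 and 1.35.

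Whether the treatment difference itself differed between the days was tested over the 6 libraries, with the spread of the day 6 pairs assumed for the lone day 4 libraries. None of the 39 genes tested was called and 0 had an unadjusted p under 0.05, beside 0.0% called and 1.85% unadjusted of 16031 genes (DESeq2: 0 of the 41, 2 genes in all). The intervals were wide: the difference of log2 fold changes was 2.29 for *Ifit3* (95% interval −0.72 to 5.31), 1.29 for *Dhx58* (−0.10 to 2.68) and −3.56 for *Oas3* (−7.19 to 0.08). For *Oasl1* it was −0.15 (−1.06 to 0.75) and for *Irf7* 0.13 (−0.97 to 1.22), narrower intervals that come with their higher counts. Between day 6 and day 4, with treatment as a term, 0 of 35 genes were called by edgeR, beside 0.562% of all genes, and 7 of the 35 had an unadjusted p under 0.05, 5 higher and 2 lower at day 6, beside 12.6% of all genes (DESeq2 called 1 of the 41). Day goes together with library series, and these cannot be told apart.

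**Figure D4:**
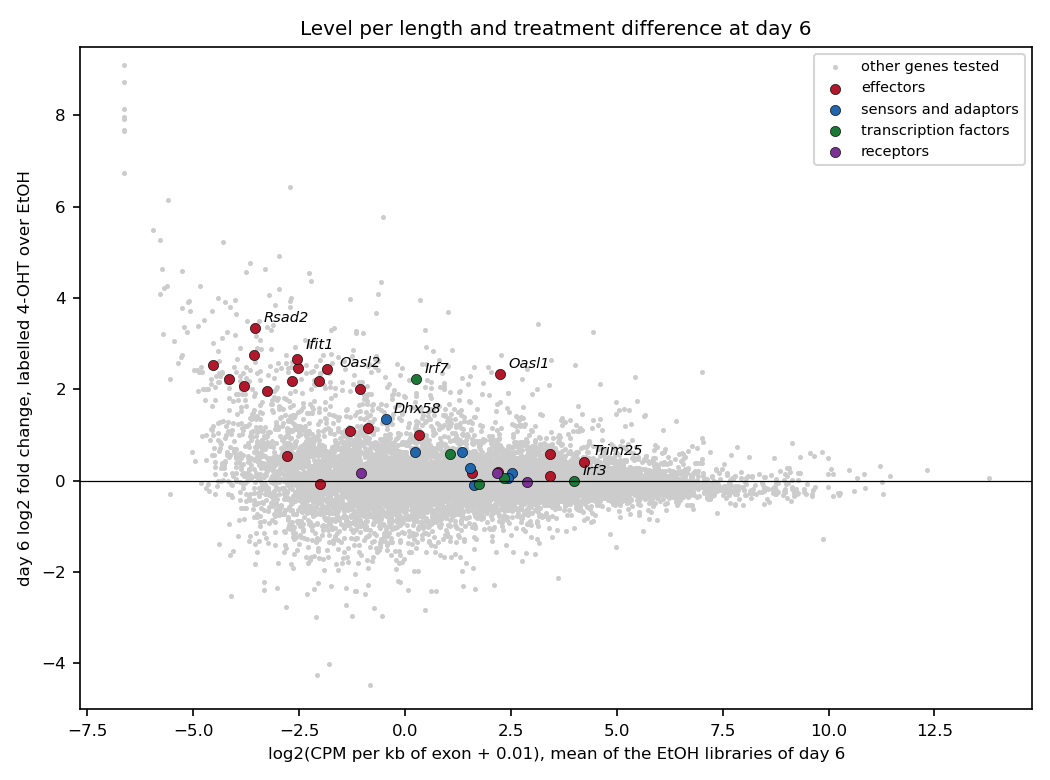
Day 6 log2 fold change (libraries labelled 4-OHT over EtOH) against the EtOH level at day 6 as log2(CPM per kb of exon + 0.01), for all genes tested in grey and the interferon and RNA sensing genes in the colour of their role. The genes with fold changes above 2 lie at low EtOH levels, except *Oasl1* and *Irf7*, and the 16 genes at 10 to 100 CPM have a median of 0.16.

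The differences were larger among genes with a low EtOH level. The 11 genes under 1 CPM with EtOH at day 6 had a median log2 fold change of 2.19 (2 called), the 10 at 1 to 10 CPM had 1.25 (4 called), the 16 at 10 to 100 CPM had 0.16 (1 called, *Oasl1*) and the 1 gene above had 0.42 (0 called). Over all genes tested the same classes had medians of 0.23, −0.05, −0.02 and −0.03, with 4.51%, 3.7%, 1.61% and 0.853% called higher. In each of the 4 classes the median of these genes was above that of all genes, and the genes of the lowest class passed the filter mainly through their higher group, as said above. The classes were set by the same EtOH libraries that the fold changes divide by, so a low class leans to higher values by construction. The order of the classes is a description and not a test.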

How the data were processed

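The values the authors deposited are whole-number counts per gene, not normalized, in 1 file a library with 4 summary lines; the submitters' processing notes name STAR and mm39, and the annotation release and strand setting are not given in the sources used here. Per the labels' protocols, messenger RNA was selected with poly-T beads and primed with random hexamers. No molecular identifiers are mentioned. The exact intervals of the day 4 ratios cover counting error only. The other 95% intervals come from the edgeR fits and include the spread between libraries. Summary lines, 19.3% to 26.7% of entries, were left out of library sizes and tests; they hold multimapping and ambiguous reads, so genes with copies or overlapping neighbours are undercounted. Symbols and positions come from GENCODE M39 (GRCm39), which named 56323 identifiers holding 99.964% of counts.

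Counts were tested with edgeR 4.0.16 (glmQLFit, glmQLFTest; R 4.3.3), TMM scaling, filterByExpr with a minimum count of 10 and Benjamini-Hochberg adjustment over all genes, at 0.05; SE is the absolute log2 fold change over the square root of F. Day 4 log2 ratios and the 2-fold counts of day 4 use a prior count of 2. Day 4 ratios with exact intervals come from scaled counts without a prior. CPM per kb divides by all exon bases of a gene. The alternatives were DESeq2 1.42.0, median-of-ratios scaling, other filters, a replicate block, all 6 libraries together, an earlier form of the edgeR fit (chosen after seeing the data), a prior count of 0.5, no day 4 minimum and leaving out each library. The scripts were tested on simulated data. Replicates differed by more than sampling noise (chi-square per degree of freedom 33.2 with EtOH, 22.9 in the libraries labelled 4-OHT) and were kept apart.

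The genes, the lists and the tests were chosen with earlier results of these data known. Values of all libraries are given for genes called at day 6 or over both days, for the highest of each role and for genes with copies or overlaps; from other lists, those called at day 6 are named, at most 5 a list.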

Additional observations from a re-analysis of the deposited data

How the results depend on the processing

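With scaling, filter, test or library pooling changed, 7 to 8 of the 41 genes were called at day 6, each set holding the 7 reported. The share of all genes called was 1.19% to 2.67% there. Over both days 10 to 11 of the 41 were called, beside 2.07% to 4.4% of all genes. The replicate numbers of day 6 link only 2 pairs (correlation of the replicate differences 0.223). Whether a shared number marks a shared culture or batch is not given, so the pairing is unresolved. With a replicate block, 15 genes were called at day 6, 13 of them effectors (6 effectors without the block). Over all genes, 839 were called at day 6 with the block and 353 without it. Over both days the block gave 13 genes, beside 873 of all genes (617 without it). Leaving out 1 library at day 6 gave an effector median log2 fold change of 1.38 to 2.39. There the lone library is assumed to vary like the other group. Over both days, leaving out 1 library gave 6 to 10 genes, beside 2.5% to 4.79% of all genes. The fits over both days without a day 4 library repeat the day 6 comparison and are no separate check. Day 6 against day 4 had 1 gene by DESeq2 and 0 by edgeR. Without the minimum level at day 4, 16 genes were at least 2-fold higher. The share of all genes at that setting was not computed, so this count does not set these genes apart from others. For single genes 224 values kept their direction and side of the threshold, 32 fell short of it, 7 newly passed it and 0 reversed; the cause was not tested. Over all 11 alternatives *Oasl1* and *Irf7* were called each time at day 6, while *Ifit3*, *Oasl2* and *Rsad2* were called in 9, losing the call without EtOH replicate 1 and again without EtOH replicate 2. Over both days *Ifit3* was called in 5 and *Mx1* in 4 of 11, which include the fits without a day 4 library. No day 4 library could be left out of the treatment by day test. *Isg15*, *Usp18*, *Ifi44* and *Oas2* had 0 to 10 counts in each EtOH library, so the sizes of their differences are imprecise at this depth.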

Other observations

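Some values of the wider list of interferon-stimulated genes were singled out after they were seen. *Ifitm3*, a membrane protein that blocks viral fusion, ran against most of the list, with 1383 and 922 counts with EtOH and 810 and 393 in the libraries labelled 4-OHT at day 6, and 964 against 447 at day 4. It was called lower over both days (log2 fold change −0.97, SE 0.22, edgeR adjusted p = 0.0344) and not at day 6 alone (−1.11, edgeR adjusted p = 0.075), and 60.9% of its exon bases overlap *Gm57251* on the other strand. *Irgm1*, an immunity-related GTPase, was called higher over both days (0.79, SE 0.14, edgeR adjusted p = 0.0109), with each library labelled 4-OHT above each EtOH library. The guanylate-binding protein genes *Gbp2*, *Gbp3*, *Gbp5*, *Gbp6* and *Gbp7*, known for their response to interferon gamma, had means of 0.00854 to 0.329 CPM over the 6 libraries and were too low to test. *Iigp1*, *Tgtp1* and *Tgtp2* were at 0 in all libraries, and reads that map to several places are in no gene's count.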
